A study of Capra hircus with 12 samples.

Results

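The 12 small RNA libraries of cashmere goat secondary hair follicles (SHFs) were divided by calendar month into 6 libraries of February, March and May and 6 libraries of September, November and December, and the microRNAs (miRNAs) followed across this division were chosen by their measured level, which had to exceed 5 CPM (the count scaled to a common library size) in at least 2 of the 12 libraries. By this rule 300 miRNAs were tested, 280 of the 339 listed under goat miRNA names and 20 of the 37 listed only by a number. The SHFs came from Liaoning cashmere goats aged 1.5 years, and each month is represented by a female library and a male library. At each time point 3 goats of each sex were sampled, and how they were combined into libraries is not given in the sources used here. February and March are the resting phase of the follicle (telogen), May and September belong to the growth phase (anagen), and November and December to its regression (catagen). The February to May group therefore holds 4 telogen and 2 anagen libraries and the September to December group 2 anagen and 4 catagen libraries, and the division cuts through anagen. No group carries a genetic change or a treatment. Month, daylight, hair cycle phase and any processing of the samples by month cannot be told apart in this design.

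Cashmere grows from SHFs, which pass once a year through growth, regression and rest in step with the season. A miRNA is cut from a hairpin precursor as a duplex of a 5p and a 3p arm, 1 of which is usually kept while the other is degraded, and the kept arm guides silencing of messenger RNAs that pair with its seed. Many miRNAs lie next to each other in the genome and are transcribed together, and in skin the epithelial miR-203 and miR-200 families and the mesenchymal miR-199, miR-214 and miR-143 and miR-145 families are known for marking the epidermal and dermal compartments of the follicle.

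Counts per library ran from 3135292 to 5788032, with a median of 4287867 in February to May and 4807844 in September to December, and no pair of libraries agreed within sampling noise (the smallest chi-square was 70.0 times its degrees of freedom). The 10 most abundant miRNAs took 65.8% to 72.5% of the counts in the February to May libraries and 73.0% to 75.02% in the September to December libraries. The factors of the trimmed mean of M-values (TMM) that correct for this composition were 1.01 to 1.29 in the former and 0.813 to 0.916 in the latter, so the groups did not overlap in their scaling either. Replacing TMM by library totals raised every log2 fold change by 0.33 to 0.49 (median 0.42), and all changes given here are relative to TMM unless library totals are named. The keratinocyte markers present (7 listed miRNAs) summed to 55725 to 78626 CPM in February to May and 67393 to 104605 CPM in September to December. Those of dermal papilla and sheath fibroblasts (9 listed miRNAs) summed to 100849 to 141146 CPM and 136833 to 166618 CPM. The fibroblast list includes the abundant miR-143-3p, which the study located in the hair matrix. Its sum therefore does not show that dermal cells were present in every library. Summed markers of other cells overlapped between the groups. The erythrocyte markers (miR-144-5p and miR-451-5p) summed to 19.1 to 93.7 CPM in February to May and 6.39 to 33.4 CPM in September to December, the leukocyte markers (7 miRNAs) to 4870 to 16132 and 10425 to 17217 CPM, the endothelial miR-126 arms to 7132 to 12207 and 10495 to 13716 CPM, and the muscle markers (5 miRNAs) to 1544 to 3474 and 2852 to 4251 CPM. 1 of the 2 erythrocyte markers (miR-144-5p) and 0 of the 7 leukocyte, 2 endothelial and 5 muscle markers were called by edgeR. Over all tested miRNAs 12.7% were called, so with so few markers these counts say little. Without the fold limit miR-146a (log2 fold change 0.84) and miR-126-5p (0.46) passed as higher in February to May. miR-155-5p (-0.53) and miR-1 (-0.71) passed as lower. The part of these cells in the results was not tested, and fewer cells of a type cannot be told apart from less of a miRNA per cell.

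Between the 2 groups 38 miRNAs were called, which is 12.7% of those tested, with 20 higher (6.67%) and 18 lower (6%) in February to May. The higher group held 14 miRNAs of the imprinted DLK1-DIO3 region, among them miR-136-3p (3.07-fold), miR-369-3p (2.83-fold) and miR-376c-3p (2.53-fold), whose libraries did not overlap between the groups. The largest higher folds belonged to miR-122 (7.14-fold), which rested on 2 libraries, and to miR-544-5p and miR-410-3p, which had few counts. The lower group was led by miR-184 (3.82-fold), an abundant miRNA of surface epithelia, novel_704 (3.67-fold), miR-27a-5p (3.21-fold) and miR-195-3p (2.78-fold). A call stands for a Benjamini-Hochberg adjusted p under 0.05 from edgeR's quasi-likelihood test and a change of at least 2-fold. Without the fold limit 138 miRNAs passed (46% of those tested), 59 higher (19.7%) and 79 lower (26.3%), while the unadjusted p was under 0.05 in 167. How the calls divided between the directions changed with the scaling. Library totals gave 61 calls (20.3%), of which 57 were higher (19%) and 4 lower (1.33%), and 159 miRNAs (53%) passed the adjusted p, 45.3% as higher and 7.67% as lower. All 20 higher calls and 4 of the 18 lower calls (miR-184, novel_704, miR-27a-5p and miR-195-3p) were shared by both scalings, and 0 were called in opposite directions. The division into these months was proposed with earlier results of the same libraries in view, so the calls describe these libraries and are not independent evidence of a half-year pattern.

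The abundance rule shaped the members too. Of the 300, 37 miRNAs passed the 5 CPM limit in at least 2 libraries only through 1 of the groups. Of these, 29 passed through February to May and 8 through September to December. Such miRNAs had fewer than 2 libraries over the limit in the other group, which favours a lower value there but does not fix it. They held 11 of the calls, and the other members held 27, of which 13 were higher and 14 lower. By their second highest CPM the members just inside the limit were miR-758 (5.08) and novel_206 (5.11), and miR-502b-3p and miR-26b-3p (both 4.92) lay just outside.

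**Figure D1:**
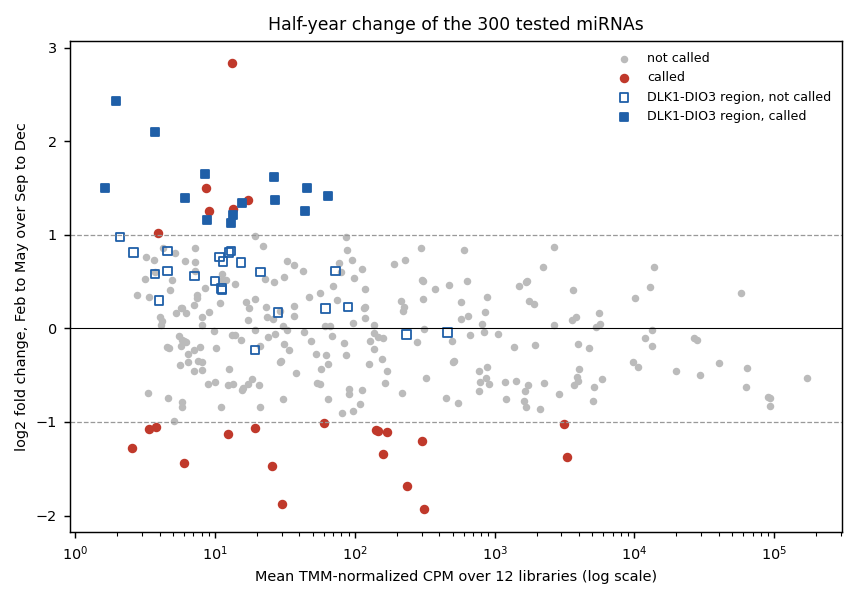
Each point is 1 of the 300 tested miRNAs, with its mean TMM-normalized CPM over 12 libraries on a log axis and the log2 fold change of February to May over September to December on the vertical axis; dashed lines mark 2-fold, filled markers the 38 calls and squares the DLK1-DIO3 region. The higher calls lie at mean levels up to 64.5 CPM while lower calls reach 3302 CPM, and with library totals in place of TMM all points would sit 0.33 to 0.49 higher, which turns the sign of some values just under 0.

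The called miRNAs differed in abundance. Those higher in February to May had mean levels from 1.63 to 64.5 CPM with a median of 13.1, against a median of 53.2 over all tested miRNAs, while the lower ones ranged from 2.54 to 3302 CPM with a median of 100.3. Levels of the 2 groups did not overlap for 60 miRNAs, or 20% of those tested, of which 19 were higher and 41 lower in February to May. Of the 38 calls 21 were without overlap (7 higher, 14 lower), and the other 39 miRNAs without overlap passed the adjusted p but changed by less than 2-fold.

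In the imprinted DLK1-DIO3 region, 49 miRNA arms were listed and 37, from 28 precursors, were tested. Its miRNAs are maternally expressed and are known from embryonic and stem cells. The region was bounded by the order of miRNA genes in the RefSeq genes of goat assembly ARS1.2, where 45 miRNA genes follow each other. Of the 37 arms 14 were called higher and 0 lower by edgeR's quasi-likelihood test, which is 37.8% against 2.28% of the 263 tested miRNAs outside the region and 6.67% over all tested. The adjusted p alone was passed by 16 (all higher), and 21 did not pass it. The median log2 fold change was 0.81 inside and -0.10 outside the region, and 34 of the 37 values were above 0. With library totals 26 arms were called higher and the median was 1.25. These figures include 11 arms that passed the abundance rule through February to May only, which favours higher values there. Of the other 26 arms 9 were called higher (34.6%), against 4 of the 237 such miRNAs outside the region (1.69%). Their median log2 fold change was 0.71 with 23 of 26 above 0 (88.5%), against -0.12 with 97 of 237 above 0 (40.9%) outside. With library totals these medians were 1.17 and 0.29. The 37 arms come from 28 precursors, many of them neighbours, and are not independent of each other. The list behind the region was chosen with earlier results of these data known, so these shares are description and the region was not tested as a set.

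miR-136-3p, from a precursor antisense to RTL1, ran from 17.7 to 67.2 CPM in February to May (median 36.4) and from 8.19 to 16.4 CPM in September to December (median 13.6). Its log2 fold change was 1.62 (standard error (SE) 0.28, adjusted p = 0.000498 in edgeR's quasi-likelihood test). The lowest February to May library thus lay above the highest of the other group, and the male March and male May libraries were the highest of all. The other arm of the same precursor, miR-136-5p, had 26.9 to 60.8 CPM (median 32.2) and 8.98 to 19.5 CPM (median 16.2), a log2 fold change of 1.37 (SE 0.25). Both arms of miR-136 rose without overlap, and this was the only precursor of which both arms were called.

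miR-369-3p had 33.7 to 105 CPM in February to May (median 70.7) and 17.3 to 31.5 CPM in September to December (median 23.4), a log2 fold change of 1.50 (SE 0.26). For miR-376c-3p the levels were 17.9 to 27.8 CPM (median 22.2) and 6.76 to 11.4 CPM (median 8.70), with a log2 fold change of 1.34 (SE 0.17, adjusted p = 6.11e-05 in edgeR's quasi-likelihood test), the smallest p among the higher calls. In both miRNAs the 6 libraries of February to May lay above the other 6, and within each of those months the male library was above the female one. miR-376e-3p had 14.8 to 22.3 CPM (median 18.9) and 6.05 to 9.88 CPM (median 8.44), a log2 fold change of 1.22 (SE 0.19). miR-3955-5p, at 4.47 to 17.3 CPM (median 6.93) and 2.24 to 4.29 CPM (median 3.24), was the sixth member of the region without overlap (log2 fold change 1.39, SE 0.34). It passed the abundance rule through February to May only, so its lack of overlap partly restates that rule. Because miR-376 and miR-487 members are near-identical in sequence and reads could be shared among them, their separate values are uncertain to that extent.

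Both of the largest fitted changes of the region, of miR-544-5p and miR-410-3p, belonged to miRNAs of few counts. These miRNAs and miR-487a-3p, likewise of few counts, passed the abundance rule only through February to May, so their ratios partly restate that rule. miR-544-5p had 4 to 27 counts per library in February to May and 1 to 4 in September to December, in all 97 against 14 counts, a ratio of 5.44 after scaling (95% exact interval 3.09 to 10.3, counting error only). miR-410-3p had 176 against 33 counts, a ratio of 4.18 (2.87 to 6.27), and miR-487a-3p 71 against 20 counts, a ratio of 2.79 (1.68 to 4.83). The levels of all 3 overlapped between the groups, as did those of miR-411b-5p, the third in size of change (1.65, SE 0.39), which also passed the rule through February to May only and had 4.30 to 23.6 CPM against 2.43 to 5.79 CPM. The calls miR-487b-3p (1.16, SE 0.29) and miR-3959-3p (1.13, SE 0.25) overlapped too. Among the more abundant calls, miR-494 ran from 29.4 to 169 CPM (median 99.5) in February to May and from 24.6 to 54.6 CPM (median 33.2) in September to December (log2 fold change 1.41, SE 0.41). miR-3958-3p ran from 14.5 to 108 CPM (median 66.4) and from 21.7 to 30.6 CPM (median 24.8), so that its lowest February to May library was the lowest of the 12 although its log2 fold change was 1.26 (SE 0.41).

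Not all miRNAs of the region took part. Its most abundant members were miR-379-5p, with a mean of 461 CPM and a log2 fold change of -0.04 (SE 0.25), and miR-127-3p, with 234 CPM and -0.07 (SE 0.25). miR-381 (19.3 CPM) was the lowest at -0.23, and with library totals the 3 values were 0.41, 0.38 and 0.18. The summed level of the region overlapped between the groups, with 864 to 2769 CPM in February to May, the highest in the male March library, and 969 to 1432 CPM in September to December.

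**Figure D2:**
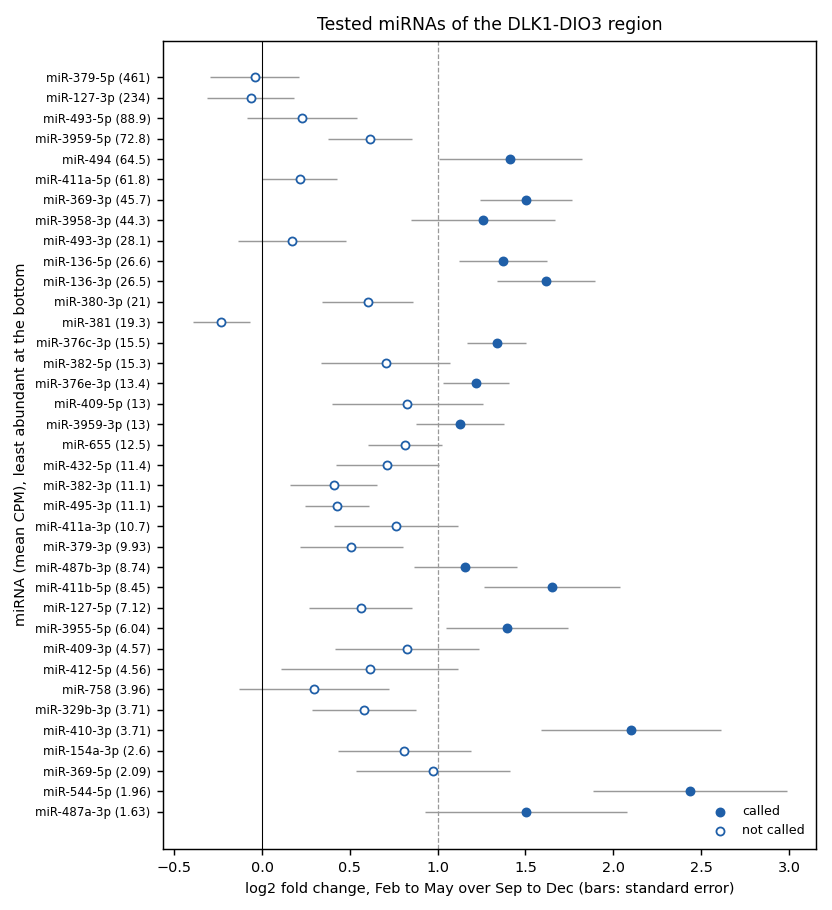
The log2 fold change of February to May over September to December (horizontal axis, TMM scaling) is drawn with its SE for each of the 37 tested arms of the DLK1-DIO3 region, ordered by mean CPM with the most abundant at the top; filled circles mark the 14 calls and the dashed line 2-fold. All but 3 values lie above 0, and the 2 most abundant members sit next to 0 at -0.04 and -0.07, positions that become positive with library totals.

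Outside this region 6 miRNAs were called higher in February to May. miR-217-5p, known from the acinar cells of the pancreas, had 17.7 to 31.5 CPM in February to May (median 25.4) and 6.09 to 15.3 CPM in September to December (median 8.61), a log2 fold change of 1.38 (SE 0.24, adjusted p = 0.000523 in edgeR's quasi-likelihood test). It was the only one of the 6 without overlap. miR-190a-5p, encoded within TLN2, had 13.1 to 26.8 CPM (median 16.99) and 5.14 to 13.8 CPM (median 7.39), a log2 fold change of 1.27 (SE 0.25), and let-7i-3p, the rare arm of let-7i, 9.05 to 18.2 CPM (median 11.99) and 2.14 to 9.70 CPM (median 5.08), a change of 1.25 (SE 0.30). Both overlapped only through the female December library. miR-301a-3p, encoded within SKA2, had 3.95 to 6.78 CPM (median 5.21) and 1.52 to 5.09 CPM (median 2.08), with a log2 fold change of 1.02. It passed the abundance rule through February to May only, so its call partly restates that rule.

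miR-144-5p, an erythroid miRNA, had 4.98 to 31.03 CPM (median 11.4) and 1.42 to 7.86 CPM (median 3.78), a log2 fold change of 1.51 (SE 0.46). Its neighbour miR-451-5p, the other erythrocyte marker measured, stood at 0.88 (adjusted p = 0.109, same edgeR test) with 13.1 to 62.7 and 4.26 to 29.9 CPM. miR-122, the main miRNA of liver, was called with a log2 fold change of 2.84 (SE 1.06, adjusted p = 0.0424 in edgeR's quasi-likelihood test) on 325 counts in the male February and 361 in the male March library, against 2 to 22 counts in each of the other 10. The call was lost without any 1 of 8 libraries, these male libraries among them, and in the female libraries its log2 fold change was -1.09. The level of miR-122 thus described those male libraries and not a group of 6.

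The miRNAs lower in February to May included some of the more abundant calls, and 14 of the 18 were without overlap. miR-27a-5p, the rare arm of a miRNA known from adipocyte and endothelial biology, had 84.8 to 141.01 CPM in February to May (median 112) and 301 to 433.3 CPM in September to December (median 358). Its log2 fold change of -1.68 (SE 0.16, adjusted p = 5.64e-06 in edgeR's quasi-likelihood test) shared the smallest adjusted p of the test with miR-27b-3p, which missed the 2-fold limit. miR-195-3p ran from 10.04 to 16.5 CPM (median 13.7) and from 30.8 to 42.1 CPM (median 37.3), a log2 fold change of -1.47 (SE 0.15). In both, the gap between the groups exceeded the whole range within February to May.

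miR-184 had 42.5 to 225 CPM in February to May (median 126.1) and 247 to 852 CPM in September to December (median 470), a log2 fold change of -1.93 (SE 0.38, adjusted p = 0.00104 in edgeR's quasi-likelihood test). The groups only just failed to touch, with the female May library highest in the former and the male December library lowest in the latter. novel_704, listed only by a number, had 2.98 to 20.9 CPM (median 14.0) and 34.5 to 62.3 CPM (median 49.2), a log2 fold change of -1.88 (SE 0.37). Its month means were 20.1 CPM in February, 14.0 in March and 4.41 in May, then 41.9, 55.6 and 45.0 CPM in September, November and December. With library totals both were still called, at -1.50 and -1.48.

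miR-151-3p, encoded in PTK2, was the most abundant call, with 1099 to 3068 CPM in February to May (median 1748) and 3344 to 5887 CPM in September to December (median 4880). The log2 fold change was -1.38 (SE 0.23) with TMM and -0.99 with library totals. miR-378-3p, encoded in PPARGC1B and known for its tie to mitochondrial metabolism, had 1654 to 2341 CPM (median 2186) and 3583 to 4953 CPM (median 4255), a change of -1.02 (SE 0.12) with TMM and -0.61 with library totals. Both were lower in all 6 libraries of February to May, with May the lowest month, but missed the 2-fold limit with library totals. miR-335-3p, encoded in the imprinted gene MEST, had 54.3 to 142.7 CPM (median 79.7) and 193 to 296 CPM (median 213.6), a log2 fold change of -1.35. miR-30e-3p, encoded in NFYC, had 121 to 264 CPM (median 174) and 323.3 to 547 CPM (median 401), a log2 fold change of -1.20.

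The other lower calls were miR-2318 (log2 fold change -1.44), novel_586 (-1.28), miR-99b-3p (-1.13), miR-125b-3p (-1.11), miR-1468-5p (-1.10), novel_587 (-1.08), novel_206 (-1.08), miR-296-3p (-1.07), miR-92a-5p (-1.05) and miR-3431-3p (-1.01). Of these miR-2318, novel_586, novel_206 and miR-92a-5p overlapped between the groups. The same miRNAs passed the abundance rule through 1 group only, so their calls partly restate that rule. With library totals the 10 values lay from -1.004 to -0.61 and none was called. miR-1468-5p, for example, ran from 73.2 to 105.9 CPM (median 97.9) and from 141.2 to 257 CPM (median 198).

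**Figure D3:**
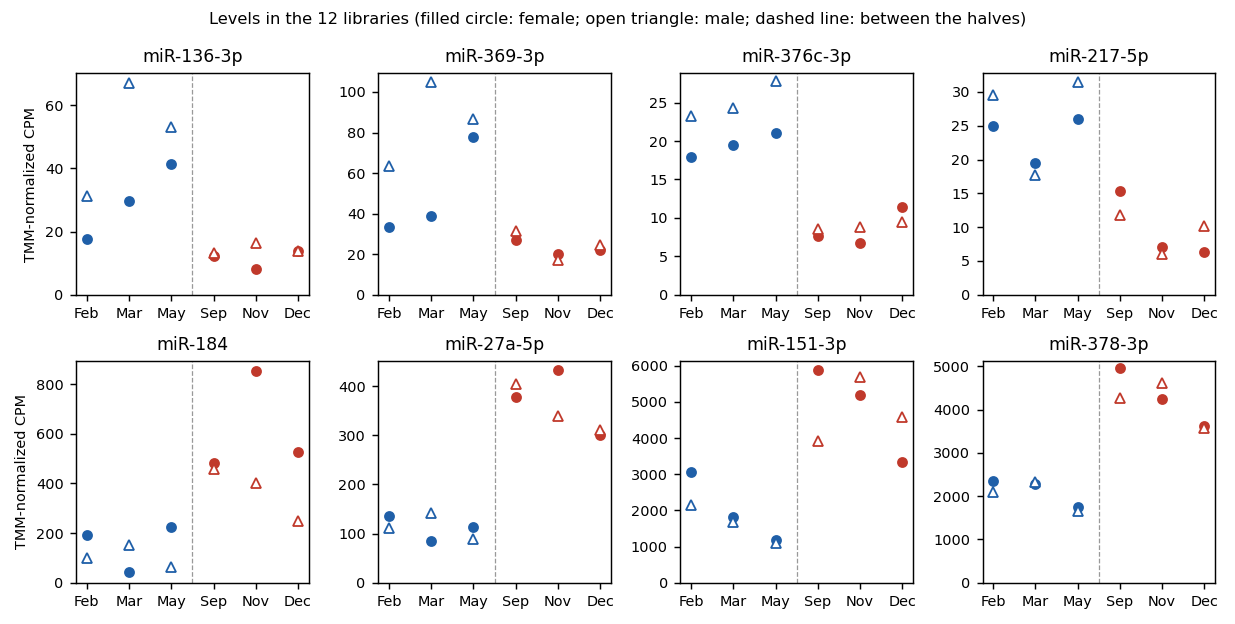
TMM-normalized CPM (vertical axes, each from 0) of 4 miRNAs called higher (top row) and 4 called lower (bottom row) in February to May is shown by month, with filled circles for female and open triangles for male libraries and a dashed line between May and September. In all 8 panels the 6 libraries left of the line do not overlap with the 6 on its right, as for miR-376c-3p at 17.9 to 27.8 against 6.76 to 11.4 CPM.

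Among the 58 miRNAs with a mean above 1000 CPM, miR-151-3p and miR-378-3p alone were called. By the adjusted p alone 10 passed as higher and 25 as lower in February to May. Over all tested miRNAs 12.7% were called, and 19.7% passed the adjusted p alone as higher and 26.3% as lower. With library totals the latter shares were 45.3% and 7.67%, so over all miRNAs the split between directions depended on the scaling. miR-26a-5p, the most abundant member, had 104335 to 190687 CPM in February to May (median 127389) and 160547 to 231900 CPM in September to December (median 211048), a log2 fold change of -0.53 (SE 0.16, adjusted p = 0.0142 in edgeR's quasi-likelihood test). miR-143-3p, on the fibroblast list, had 53674 to 88949 CPM (median 68634) and 99848 to 129246 CPM (median 118821), a log2 fold change of -0.74 (SE 0.14). miR-27b-3p had 56993 to 75961 CPM (median 68680) and 112067 to 122134 CPM (median 119378), with -0.83 (SE 0.08). The last 2 were without overlap, and with library totals the 3 values were -0.14, -0.35 and -0.41.

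miR-199a-3p, which marks mesenchyme, went the other way with 13476 to 19508 CPM (median 17824) in February to May and 9399 to 13428 CPM (median 10458) in September to December, a log2 fold change of 0.65 (SE 0.12), and with library totals it was called at 1.08. miR-30e-5p had 2352 to 4198 CPM (median 3669) and 1492 to 3044 CPM (median 1697), a log2 fold change of 0.87 (SE 0.19), or 1.28 and called with library totals. Its groups overlapped only through the female December library. The keratinocyte miR-203, with 42562 to 65091 and 51658 to 91642 CPM, stood at -0.43 (SE 0.14, adjusted p = 0.0215, same test) and at 0.00 with library totals, so its direction rested on the scaling. For miR-148a-3p the log2 fold change was -0.73 (SE 0.22, -0.34 with library totals), for miR-423-5p -0.80 (SE 0.17, -0.35), for miR-200a -0.67 (SE 0.19, -0.29) and for miR-146a 0.84 (SE 0.21, 1.23 and called with library totals).

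Some abundant miRNAs had a fitted change near 0. The most abundant with a log2 fold change within 0.1 of 0 were let-7b-5p (13467 CPM, -0.02, SE 0.10), miR-24-3p (5648 CPM, 0.05, SE 0.10), miR-200b (5319 CPM, 0.01, SE 0.11), miR-101-3p (3549 CPM, 0.09, SE 0.31) and miR-27a-3p (2674 CPM, 0.03, SE 0.12). With library totals they lay between 0.40 and 0.46. miR-101-3p was not steady, at 1701 to 7546 CPM in February to May and 2598 to 5381 CPM in September to December. Its log2 fold change was 0.41 in females and -0.45 in males. miR-17-5p (0.49, adjusted p = 0.0584 in edgeR's quasi-likelihood test), miR-92a-3p (-0.52, adjusted p = 0.0551), miR-345-3p (-0.34), miR-9-5p (-0.38) and miR-29b-3p (-0.01) did not pass the test.

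In the families that follow few arms were called, and their counts stand against 6.67% higher and 6% lower calls over all tested miRNAs, or 19.7% and 26.3% by the adjusted p alone, and against 19% and 1.33% of calls with library totals. With so few arms, shares close to these say little about a family. The 15 tested arms of hair cycle regulators known from mouse skin had 0 called higher and 1 lower (miR-125b-3p), 3 and 5 by the adjusted p alone, and a median log2 fold change of 0.10 against -0.01 over all tested. Among the 7 epidermal miRNAs miR-184 alone was called, with a median of -0.04, and miR-141 (0.74) and miR-200a (-0.67) passed the adjusted p in opposite directions. None of the 14 dermal and mesenchymal arms was called by edgeR, with a median of 0.28, where 5 passed the adjusted p as higher, all of miR-199a, miR-199b, miR-214 and miR-21, and 5 as lower, all of miR-10, miR-143 and miR-145. The direction of the medians under library totals was 0.54, 0.38 and 0.69, so that of the epidermal list turned, and the lists had 1, 1 and 1 arms called higher and 0, 1 and 0 lower.

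The miR-17-92 cluster and its paralogues, known for their role in proliferation, had 18 tested arms with 0 called higher and 1 lower (miR-92a-5p), and 7 higher and 3 lower by the adjusted p. Their median was 0.32. With library totals the split of the calls reversed, with 5 higher and 0 lower and a median of 0.75. Within the paralogue cluster of miR-106b, the arms miR-106b-5p (0.86) and miR-106b-3p (-0.81) passed in opposite directions. In the family of miR-15, miR-16 and miR-195, which restrains the cell cycle, 1 of 11 arms (miR-195-3p) was called lower, and miR-497-5p (0.99), miR-15a-5p (0.98), miR-16b-3p (0.72) and miR-424-5p (0.70) were higher by the adjusted p at less than 2-fold. With library totals 5 of the 11 were called higher and 1 lower. With library totals miR-106b-3p stood at -0.38, miR-92a-5p at -0.62 and miR-195-3p at -1.06, and the other arms named here stayed above 0.

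Of the 16 let-7 arms, let-7i-3p alone was called, and 2 were higher and 7 lower by the adjusted p, with a median of -0.18 that turned to 0.25 with library totals. The 9 miR-30 arms had 1 call (miR-30e-3p, lower) and a median of -0.18, which turned to 0.22. The 9 arms of miR-99, miR-100 and miR-125 had 2 calls, both lower (miR-99b-3p and miR-125b-3p), and a median of -0.57, or -0.16 with library totals. The 9 arms of miR-23, miR-27 and miR-24 had 1 call (miR-27a-5p), 0 higher and 5 lower by the adjusted p, and a median of -0.64, or -0.23. With library totals these 4 families had 1, 1, 1 and 0 arms called higher and 0, 0, 0 and 1 lower. Reads of near-identical let-7, miR-30 and miR-125 members could be shared, so single members of these families are uncertain to that extent.

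The remaining lists held few calls. Of the miR-29 (5 arms), miR-26 (3), miR-148 (4) and miR-181 (3) families none was called by edgeR, and no miR-152 was listed. The median log2 fold changes of these families were 0.36, -0.53, -0.28 and 0.12, and 0.76, -0.14, 0.15 and 0.56 with library totals. In these 4 families 1, 1, 2 and 0 arms passed the adjusted p. The 8 arms of the X chromosome cluster of miR-532, miR-660, miR-500 and miR-362 had 0 calls but 3 higher and 2 lower by the adjusted p, among them miR-362-5p (0.54) and miR-532-5p (-0.83), and 1 called higher with library totals. Of the marker lists, the leukocyte list had miR-146a (0.84) and miR-155-5p (-0.53) past the adjusted p in opposite directions, the endothelial miR-126-5p (0.46) and the muscle miR-1 (-0.71), and 2 of 7 markers of other tissues (miR-122 and miR-217-5p) were called higher.

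Genes that neighbour each other within 10 kb in assembly ARS1.2 formed 28 chains of at least 2 tested precursors, covering 131 tested arms. The chain of the DLK1-DIO3 region from miR-379 to miR-410 had 29 tested arms, of which 27 were above 0 and 11 were called, and the chain with miR-127 and miR-136 had 7 tested arms with 2 called. No other chain had more than 1 call. In the chain of miR-195 and miR-497 the called miR-195-3p (-1.47) lay beside miR-497-5p (0.99) and miR-195-5p (0.73, adjusted p = 0.0613 in edgeR's quasi-likelihood test), so neighbours of this chain went in both directions, and with library totals as well.

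The opposite directions of arms from the same precursor could be measured within each library as the counts of the less abundant arm per 100 counts of the more abundant one, a ratio that no scaling of the library touches. Both arms had at least 20 counts on average in 72 precursors. For 15 of them, or 20.8%, the ratio changed by at least 2-fold between the groups with an adjusted p under 0.05 (limma on log2 ratios), and for 44 (61.1%) it passed the adjusted p. The less abundant arm took the larger share in September to December in 5 of the 15 and in February to May in 10. Ratios of the 2 groups did not overlap for 19 precursors (26.4%).

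miR-106b-3p stood at 17.5 to 24.9 per 100 counts of miR-106b-5p in February to May (median 20.98) and at 45.5 to 84.3 in September to December (median 68.5), a change of the log2 5p to 3p ratio of 1.67 (SE 0.19, adjusted p = 4.25e-07, limma). For miR-27a, the 5p arm stood at 2.75 to 4.77 per 100 counts of the 3p arm (median 4.45) and at 11.3 to 17.96 (median 12.8), a change of -1.72 (SE 0.19). For miR-30e, the 3p arm stood at 3.15 to 7.62 per 100 counts of the 5p arm (median 5.76) and at 11.5 to 34.7 (median 23.1), a change of 2.11 (SE 0.27). In these precursors the rarer arm was scarcer in all 6 libraries of February to May, while the abundant arm rose (miR-106b-5p, miR-30e-5p) or stayed near 0 (miR-27a-3p, 0.03).

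The shift ran the other way in miR-151, where the 5p arm stood at 9.09 to 17.6 per 100 counts of the 3p arm in February to May (median 14.0) and at 3.00 to 8.18 in September to December (median 4.08), a change of 1.61 (SE 0.24, adjusted p = 1.91e-05, limma). For miR-143 the 5p arm stood at 0.546 to 0.656 per 100 counts of the 3p arm (median 0.619) and at 0.171 to 0.377 (median 0.275), a change of 1.18 (SE 0.19). For let-7i the 3p arm was rare throughout, at 0.0351 to 0.0821 per 100 counts of the 5p arm (median 0.0505) and 0.0072 to 0.0360 (median 0.0147), which is the only one of these 6 precursors with an overlap, again through the female December library. Of the 10 lower calls whose other arm was tested, 0 had that arm called as well, and the other arms ranged from -0.61 to 0.87 in log2 fold change. Of the 5 such higher calls, the 2 arms of miR-136 were the ones with a called partner.

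**Figure D4:**
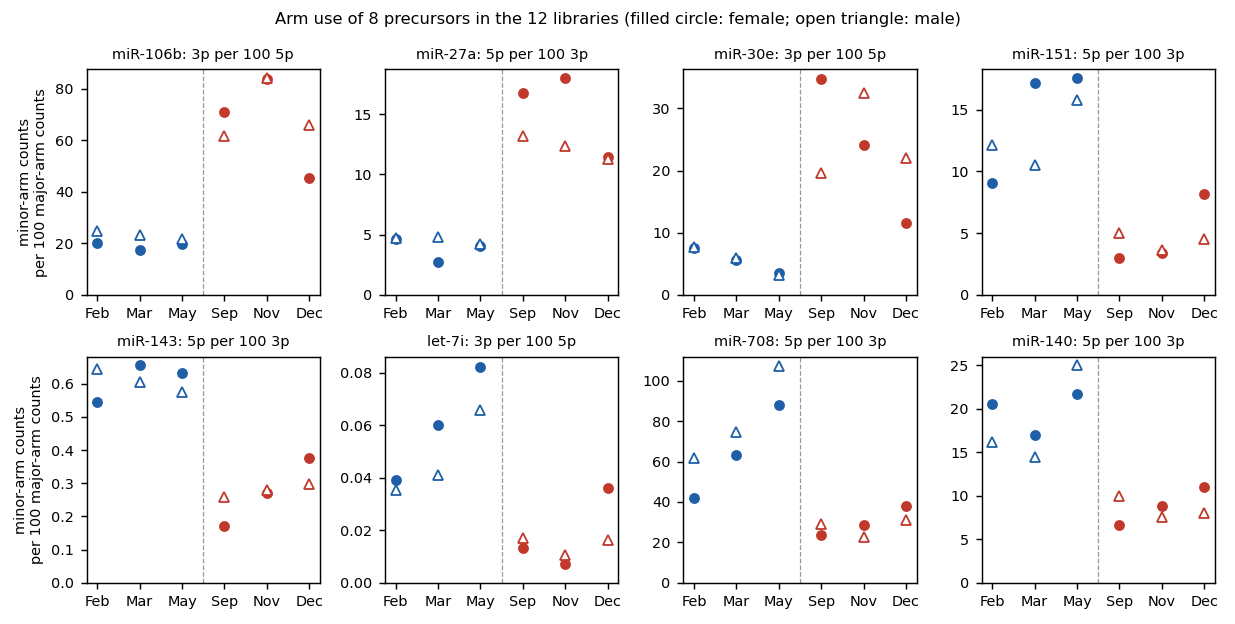
Counts of the less abundant arm per 100 counts of the more abundant arm (vertical axes, each from 0) are shown by month for 8 precursors, with filled circles for female and open triangles for male libraries and a dashed line between May and September. The ratios of miR-106b, miR-27a and miR-30e are lower left of the line (17.5 to 24.9 against 45.5 to 84.3 for miR-106b) and those of the other 5 are higher there, with an overlap in let-7i only.

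Female and male libraries share no sample, so the same division was fitted in each sex with 3 libraries against 3. In the females 27 miRNAs were called (9%), 11 higher (3.67%) and 16 lower (5.33%) in February to May, and in the males 41 (13.7%), 29 higher (9.67%) and 12 lower (4%). Of the 300 miRNAs 236 (78.7%) had the same sign in both sexes, with a Pearson correlation across miRNAs of 0.72 and a Spearman correlation of 0.74, where the points share the libraries' scaling and are not independent. All 27 female calls had the same sign in the males, and 16 were called in both, which is 59.3% of the female and 39% of the male calls. Libraries of both sexes were in view when the division was proposed, so this agreement is not independent evidence of it. The 11 miRNAs called higher in females had a median log2 fold change of 1.29 in males, and the 16 called lower -0.98. The 26 DLK1-DIO3 arms that passed the abundance rule in both groups had a median of 0.37 in females, with 20 above 0, and of 0.95 in males, with 25 above 0.

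These fits of 6 libraries rested on single libraries. In the females 51 miRNAs were called without the May library, 17 without the February, 7 without the March, 2 without the November and 0 without the September library. In the males 11 were called without the November library. A test of the difference between the sexes called 0 miRNAs by edgeR's quasi-likelihood test, where 14 had an unadjusted p under 0.05, and 0 by DESeq2. Without the female May library it called 10. The smallest p belonged to miR-150, a lymphocyte miRNA, at a log2 fold change of 0.49 in females and -0.74 in males (difference -1.24, SE 0.35, adjusted p = 0.542 in edgeR's quasi-likelihood test). For miR-450-5p the difference was 1.15, for miR-122 4.79, for miR-34c-5p 0.97, for miR-126-3p -0.67 and for miR-146a -0.85, and none passed the adjustment.

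The division also holds 2 pairs of phases that share no library, the anagen months May and September, and telogen against catagen. The fit of the 4 anagen libraries called 70 miRNAs (23.3%), 43 higher (14.3%) and 27 lower (9%) in May, and the fit of the 8 others 25 (8.33%), 14 higher (4.67%) and 11 lower (3.67%) in telogen. Of the 300 miRNAs 220 (73.3%) had the same sign in both (Pearson correlation across miRNAs 0.63, Spearman 0.65, again over points that share the scaling). Of the 70 anagen calls 65 had the same sign in telogen against catagen and 15 were called there as well, which is 21.4% of the anagen calls and 60% of the telogen to catagen calls. The 43 called higher in May had a median of 0.69 in telogen against catagen, and the 27 called lower -0.63. As the division was proposed with libraries of both pairs in view, this agreement is not independent evidence either.

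The 38 half-year calls were made on the 12 libraries that these 4 fits divide among them, so their signs in the fits largely follow from the selection and are no check of it. The call with opposite signs was miR-122, at -1.09 in females and -1.18 in anagen. miR-136-5p was among the calls with a larger value in telogen against catagen (1.73) than in May against September (0.82), while miR-410-3p (1.32 and 3.26) and novel_704 (-1.50 and -3.12) were among those with a larger value in anagen. The same 26 DLK1-DIO3 arms had a median of 0.79 from anagen, with 21 above 0, and of 0.82 from telogen and catagen, with 25 above 0.

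**Figure D5:**
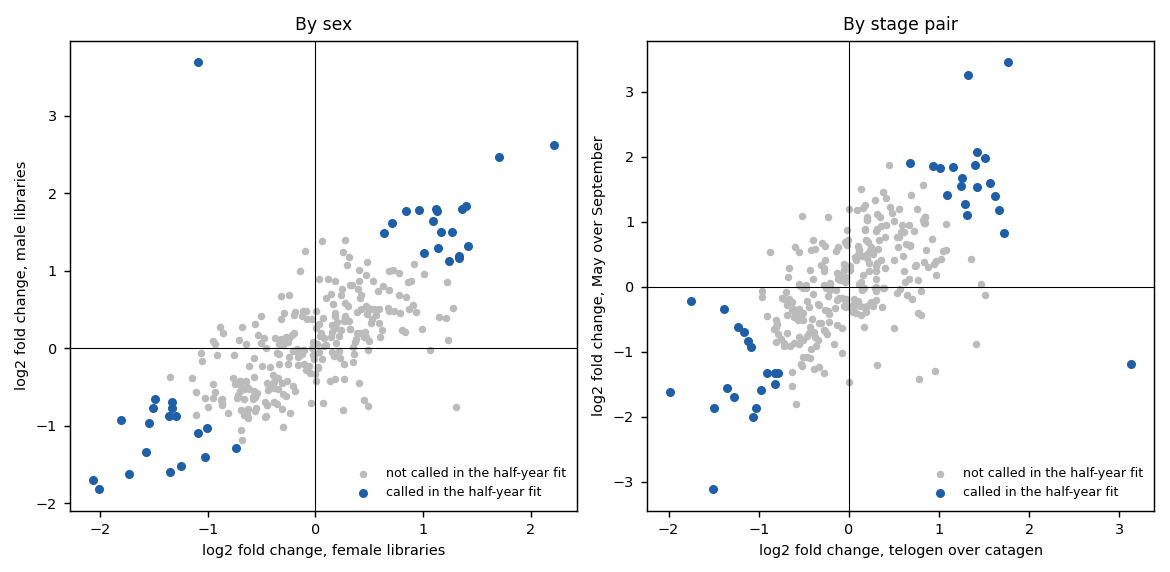
Log2 fold changes of February to May over September to December are plotted for the 300 miRNAs, in male against female libraries (left) and in May over September against telogen over catagen (right), all with TMM scaling; blue points are the 38 calls of the whole division. Because the blue points were selected on the same libraries, their place on the diagonal follows from that choice, and the grey and blue points together had the same sign in 236 miRNAs (left) and 220 (right). miR-122 lies off the diagonal in each panel, at -1.09 in females and -1.18 in anagen.

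The test of whether the anagen pair and the telogen to catagen pair differed called 1 of 300 miRNAs (0.333%) with edgeR's quasi-likelihood test, where 53 had an unadjusted p under 0.05, and 10 with DESeq2. miR-214-3p, a mesenchymal miRNA of the dermis, had 40.5 and 33.2 CPM in May, 54.6 and 51.9 in September, 53.0 to 66.8 CPM in telogen and 34.9 to 36.2 CPM in catagen. It was thus lower in May than in September (-0.43) but higher in telogen than in catagen (0.80), a difference of -1.29 (SE 0.23, adjusted p = 0.0347 in edgeR's test). It passed in 2 of the 12 fits without single libraries, over all of which the difference ran from -1.34 to -1.15, and 9 miRNAs were called without the male March library. The next smallest p values belonged to miR-223-5p (-2.28), miR-19b-3p (1.25), miR-223-3p (-2.33), miR-200a (-1.11) and miR-106a-5p (1.56), which did not pass the adjustment.

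The division accounted for a median of 34.6% of the sum of squares of a miRNA's log2 CPM over the 12 libraries (quartiles 8.57% and 60.2%), where 1 of 11 degrees of freedom is 9.09%. Months within a group held a median of 26.7% (36.4% of the degrees of freedom) and the libraries of a month 28.6% (54.5%). On the first principal component of the 300 miRNAs, which held 44.1% of the variance, the February to May libraries lay from 1.44 (female February) to 9.28 (male May) and the others from -8.21 (female November) to -3.95 (female December). These shares describe the same libraries in view of which the division was proposed and were not tested.

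Single libraries decided some calls near the 2-fold limit. Leaving out each of the 12 libraries in turn gave 32 (without male May) to 41 (without female February) calls, and 24 of the 38 calls (16 higher, 8 lower) were kept in all 12 fits. In the 7 other normalizations and models named below, 18 of the 38 calls (14 higher, 4 lower) were kept throughout. With library totals set aside these were 26 (14 higher, 12 lower). Only 17 calls (13 higher, 4 lower) were kept in all 12 fits and in all 7 others. Without the female March library 10 of the lower calls were lost, namely miR-125b-3p, miR-1468-5p, miR-296-3p, miR-3431-3p, miR-378-3p, miR-92a-5p, miR-99b-3p, novel_206, novel_586 and novel_587. Of these miR-125b-3p, miR-1468-5p and novel_587 were lost without this library only, miR-378-3p without any 1 of 5 libraries, and miR-3431-3p without any 1 of 7. Of the higher calls miR-3958-3p was lost without the male May library, miR-301a-3p without any 1 of 6 libraries, and miR-487a-3p without any 1 of 7. Without both November libraries 25 miRNAs were called, 12 of them higher, and without the 4 anagen libraries 25, with 14 higher and 11 lower.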

How the data were processed

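Small RNA was measured in 12 libraries of SHFs, a female and a male library from each of 6 months. After trimming, the authors aligned reads to goat genome CHIR_2.0, called miRNAs by miREvo and mirDeep2, and took abundances from Bowtie (0.12.9 in the submitters' processing notes). They deposited a count for each of 376 miRNAs and its TPM. The deposited TPM equalled the CPM on library totals to within 0.00499 and was used only for this check. How reads that match several miRNAs were assigned is not given in the sources used here.

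glmQLFit and glmQLFTest of edgeR 4.0.16 (R 4.3.3) were run on the deposited counts after TMM scaling. A miRNA was tested with more than 5 CPM in at least 2 libraries and called with an adjusted p (Benjamini-Hochberg over all 300) under 0.05 and at least 2-fold change. The main fit compared 6 with 6 libraries without covariates, and further fits used each sex, the anagen libraries, the telogen and catagen libraries, and interaction terms. Each SE was obtained from the F statistic, as the fold change on the log2 scale over the root of F. limma 3.58.1 was used for arm ratios (log2, 1 added to each count), for precursors with a mean of at least 20 counts on each arm. Levels are TMM-normalized CPM. The female and the male library of a month cannot share an animal. Whether goats were sampled again in other months, and how they were combined into libraries, is not given in the sources used here. The p-values therefore measure the spread between these libraries, and at this depth counting error is small except for miRNAs of few counts. Reads carry no molecular identifiers, so intervals cover counting error only.

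The members, the division and the miRNA lists were chosen with earlier results of these data known. The miRNAs named are up to 10 largest changes in each direction among calls without overlap (7 of these were higher), the 5 most abundant calls in each direction, the 5 most abundant within 0.1 log2 of 0, those the study names for its sequencing data, the 6 with the smallest p in each interaction and in arm ratios, and list members. The remaining calls, miR-27b-3p and further DLK1-DIO3 arms were named after their values were seen. Neighbouring genes and host genes were taken from the RefSeq genes of ARS1.2, which is not the build the authors used and in which 224 of 227 names were matched, so no coordinates are given. Alternatives were library totals, RLE normalization, DESeq2 1.42.0, other filters and fold limits, sex as a block, a fit of 6 months, months summed, limma voom with month as a random block, and each library or month left out. The main and further edgeR fits, the fit of 6 months and the arm ratio fit were tried on simulated counts with known changes. Those counts were drawn without a month effect. Library totals, RLE, DESeq2, sex as a block, months summed and voom were not tried on them. Mature sequences and seeds were not used here, and target prediction, RT-qPCR and imaging were not analysed here.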

Additional observations from a re-analysis of the deposited data

Results flagged for a closer look

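In 7 of the 132 groups of 6 libraries checked for the named miRNAs, 1 library stood apart from the other 5 by Dixon's criterion, which flags about 1 in 20 groups by chance. In September to December the female December library was highest in miR-101-3p (5381 CPM, next highest 3396), miR-190a-5p (13.8 CPM, next 8.08) and miR-30e-5p (3044 CPM, next 1769), the male September library in miR-223-5p (17.8 CPM, next 8.98), and the female November library in miR-9-5p (117 CPM, next 72.0). In February to May the male March library was highest in miR-144-5p (31.03 CPM, next 12.6) and miR-2318 (8.64 CPM, next 3.29).

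The half-year difference of miR-214-3p differed between the anagen pair and the telogen to catagen pair by -1.29 on the log2 scale (edgeR's quasi-likelihood test of the interaction, adjusted p = 0.0347), and its libraries were ordered in opposite ways in both pairs. Opposite orders of all libraries were also seen for miR-222-3p (0.51), miR-223-3p (-2.33) and miR-223-5p (-2.28), the last 2 being miRNAs of myeloid cells. For these 3 the difference did not pass the adjusted test across all miRNAs, with adjusted p of 0.184, 0.0966 and 0.0966 by edgeR.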

How the results depend on the processing

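Against 38 calls over all miRNAs and 14 in the DLK1-DIO3 region, library totals gave 61 and 26, the adjusted p with no minimum fold 138 and with 1.5-fold 100 over all, leaving out November 25 and 9, and leaving out the anagen months 25 and 8. RLE normalization (34), DESeq2 (37), no filter (45), a filter in 6 libraries (26), a filter on mean CPM (30, chosen after seeing the data), sex as a block (36), a fit of 6 months (38), months summed (37) and voom with month as a random block (33) stayed within 1.5 times. Leaving out each library in turn gave 32 to 41 calls over all, 12 to 18 in the region, 0 to 51 in females, 11 to 52 in males, 56 to 73 in May against September, 18 to 32 in telogen against catagen, 12 to 18 in arm ratios, 0 to 10 in the sex interaction and 0 to 9 in the stage interaction. With library totals 65 were called in males, 45 in telogen against catagen and 2 in the stage interaction, where DESeq2 called 10. Fewer samples enter the fits of single sexes and stage pairs, and otherwise the cause was not tested. In arm ratios a pseudocount of 5 gave 13 and a minimum of 100 counts 10 calls.

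With library totals 69 of the 300 values turned from below to above 0, 6 of them past the adjusted p with TMM. Among them were let-7b-5p (0.40), miR-106a-5p (0.23), miR-126-3p (0.034), miR-150 (0.25), miR-203 (0.0024), miR-29b-3p (0.33), miR-345-3p (0.13), miR-34c-5p (0.0065), miR-450-5p (0.18) and miR-9-5p (0.010). miR-29b-3p also turned with RLE normalization (0.078), DESeq2 (0.074), no filter (0.032), a filter in 6 libraries (0.061) or on mean CPM (0.049), months summed (0.021), and without May (0.43), November (0.090) or the anagen months (0.32), and ran from -0.26 to 0.20 without single libraries. miR-106a-5p turned with voom (0.015) and without December (0.15), miR-19b-3p without May (-0.028), September (-0.068) or the anagen months (-0.23), and miR-223-5p without February (-0.043), with a range of -0.024 to 0.53 without single libraries. Apart from let-7b-5p, none of these values passed the adjusted p there, and the cause was not tested. At 3135292 to 5788032 counts per library depth limits only miRNAs of a few counts. The labels give no replicate numbers across months, so pairing was tried only by sex.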
